A study of Mus musculus with 76 samples.

Results

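The suprachiasmatic nucleus (SCN) of wild-type mice fed ad libitum was compared between circadian time 12 (CT12) and circadian time 0 (CT0). All libraries that the labels give as SCN, WT, ad libitum and CT0 or CT12 were taken, which are 6 of the 76 libraries of the series. There were 3 per time, and they are named here by S and the number in their titles. Libraries S38, S39 and S401 were from CT0, and libraries S47, S48 and S404 from CT12. The whole series covers liver, heart and SCN, WT mice and mice labelled Bmal1-VIPKO, ad libitum (AL) and time-restricted feeding (TRF), and both times. The strain, sex and age of the mice, the dissection of the SCN and whether a library holds 1 animal or a pool were not given in the sources used here. Nothing in the labels says that libraries of 1 group came from separate animals, so p-values measure the spread between libraries, which may be technical. In the edgeR test of time used below, that spread was estimated from all 24 SCN libraries of the series, not from these 6 alone.

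The SCN is a small paired nucleus of the hypothalamus that holds the central circadian clock of mammals. In each cell the clock is a feedback loop in which BMAL1 (gene Arntl) and CLOCK switch on the Per and Cry genes, whose proteins then repress BMAL1 and CLOCK. REV-ERB and ROR receptors act on Arntl through a second loop, and the PAR-bZIP factors, such as DBP, carry the rhythm to output genes. CT0 is the start of the subjective day and CT12 the start of the subjective night, when a night-active mouse becomes active and its corticosterone is near its daily peak.

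Before any gene is compared, the 6 libraries have to be described, because single genes of the SCN and neighbouring regions differed widely between them. Levels are in CPM, read counts scaled to a common library size with TMM factors. Hcrt, which encodes the orexin peptides of the lateral hypothalamus, was at 9.16, 574 and 0.58 CPM in CT0 libraries S38, S39 and S401, and at 343, 533 and 139 CPM in CT12 libraries S47, S48 and S404. Pomc, the melanocortin precursor of the arcuate nucleus, was at 22.4, 78.2 and 2.54 CPM at CT0 and at 53.6, 100.004 and 65.6 CPM at CT12. Both genes were lowest in library S401, and the times overlapped for both. Ppp1r1b, which encodes the striatal phosphoprotein DARPP-32, was at 22.7, 28.1 and 231 CPM at CT0 and at 40.2, 31.4 and 51.5 CPM at CT12, so library S401 stood far above the other 5. In the exact two-sided permutation test over the 6 libraries on log2(CPM + 0.5), p was 0.4 for Hcrt, 0.3 for Pomc and 1 for Ppp1r1b. The smallest p that 3 against 3 libraries allow is 0.1.

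The defining peptides of the SCN itself varied as widely. Avp, which encodes vasopressin, was at 713, 348 and 26.8 CPM at CT0 and at 226, 403 and 673 CPM at CT12. Vip, the peptide of the light-receiving core of the nucleus, was at 10.4, 0.66 and 5.83 CPM at CT0 and at 0.50, 2.05 and 8.15 CPM at CT12. Six6, a transcription factor of the SCN, was at 6.39, 4.64 and 0.52 CPM at CT0 and at 3.58, 4.67 and 6.23 CPM at CT12. All 3 genes overlapped between the times, with an exact permutation p of 0.7, 0.7 and 0.8. Vip was below 1 CPM in libraries S39 and S47, although the labels give all 6 as SCN. The choroid plexus gene Ttr, which encodes transthyretin, was at 2352 CPM in library S47 and between 35.9 and 135 CPM in the other 5. In bulk tissue, fewer cells of a type and less RNA per cell cannot be told apart.

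**Figure D1:**
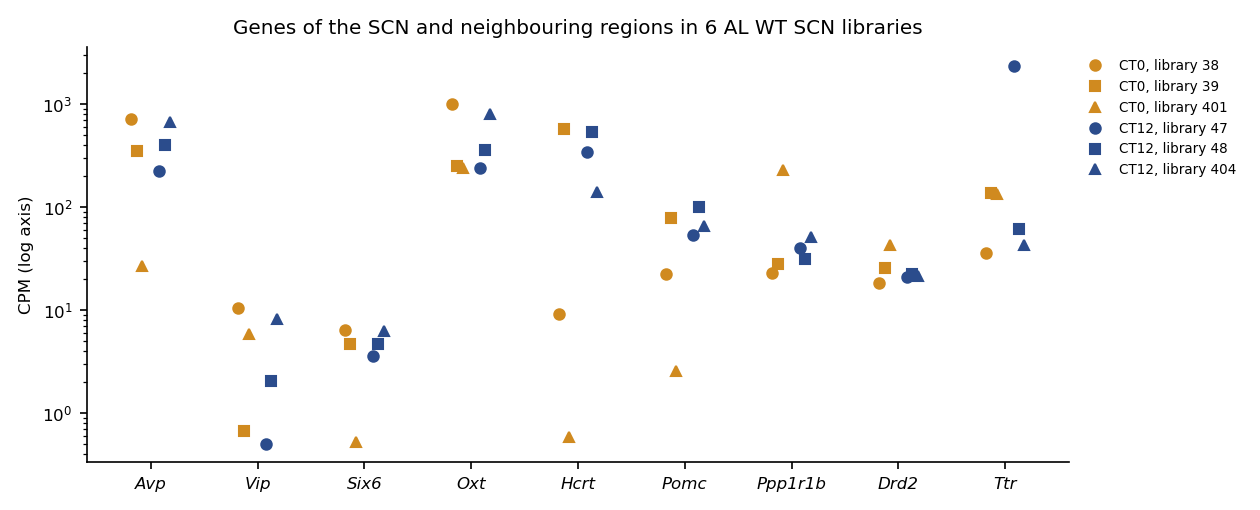
Levels of 9 genes of the SCN and neighbouring regions in each of the 6 libraries, in CPM on a log axis, with colour for the time and 1 symbol per library. The library S401 is lowest for Hcrt and Pomc and highest for Ppp1r1b, and library S47 is highest for Ttr.

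As sums, the 14 SCN neuropeptides were between 1698 and 2357 CPM in the 6 libraries. The 9 SCN transcription factors and markers summed to between 160 and 248 CPM. Both sums overlapped between the times and varied less than Avp, Vip and Six6. Scg2, among the highest members of the neuropeptide list, was alone at between 645 and 841 CPM. The neuropeptide sum is therefore not a measure of SCN content separate from such members. The striatal and choroid plexus lists gave the same picture as their single genes. The 13 striatal markers summed to 1897 CPM in library S401 and to between 759 and 940 CPM in the other 5, and all 13 had a negative log2 change from CT0 to CT12. The 8 choroid plexus markers summed to 2518 CPM in library S47 and to between 72.7 and 228 CPM in the others, and all 8 had a positive change. No member of either list was called by edgeR. The part of these marker differences in the comparisons of time was not tested.

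The comparison of CT12 with CT0 covered 18133 genes that passed a filter on low counts, of 38129 entries. The libraries held between 15834196 and 17809810 counted reads. The median log2 change over all genes was -0.00, and 1370 genes had a change above 0.5 in size. With edgeR's quasi-likelihood test and Benjamini-Hochberg adjustment over all genes, 5 genes were called below 0.05, which is 0.0276% of those tested. All 5 rose. In the following, called refers to this edgeR fit of all libraries unless another tool or setting is named. No gene was called lower, against 367 lower genes at an unadjusted p under 0.05 and 2 lower genes called by DESeq2. At an unadjusted p under 0.05 there were 805 genes (4.44%), of which 438 were higher (2.42% of those tested) and 367 lower (2.02%).

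The 5 genes that rose were Slc2a1, Ahnak, Per3, Galnt15 and Nfkbia. They do not belong to 1 pathway. Slc2a1 (ENSMUSG00000028645, chromosome 4, 119108711 to 119137983, GRCm38) encodes GLUT1, the glucose transporter of brain endothelium and astrocytes. It was at 105, 85.6 and 97.6 CPM at CT0 and at 141, 152 and 149 CPM at CT12. The lowest CT12 library was above the highest CT0 library. The log2 change was 0.62 ± 0.09 (SE), with an adjusted p of 0.0115 by edgeR.

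Ahnak (ENSMUSG00000069833, chromosome 19, 8989284 to 9076914) encodes a very large scaffold protein of the cell cortex. It was at 23.4, 25.4 and 23.8 CPM at CT0 and at 43.2, 37.8 and 37.4 CPM at CT12. The groups were apart, and within each time the libraries lay close together. The log2 change was 0.71 ± 0.11 (SE), with an adjusted p of 0.0153 by edgeR.

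Per3 (ENSMUSG00000028957, chromosome 4, 151003652 to 151044665) is a period gene of the clock. It was at 61.9, 71.4 and 60.8 CPM at CT0 and at 95.3, 90.3 and 85.9 CPM at CT12. Every CT12 library was above every CT0 library. The log2 change was 0.48 ± 0.08 (SE), with an adjusted p of 0.0255 by edgeR.

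Galnt15 (ENSMUSG00000021903, chromosome 14, 32028989 to 32062197) encodes an enzyme of the family that starts mucin-type O-glycosylation. It was the lowest of the 5, at 4.07, 3.48 and 5.02 CPM at CT0 and at 8.29, 7.47 and 7.31 CPM at CT12. Its groups did not overlap. The log2 change was 0.88 ± 0.15 (SE), with an adjusted p of 0.0255 by edgeR.

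Nfkbia (ENSMUSG00000021025, chromosome 12, 55489410 to 55492647) encodes the NF-kB inhibitor IkB-alpha and is induced both by NF-kB and by glucocorticoids. It was at 17.3, 16.0 and 18.0 CPM at CT0 and at 32.1, 26.9 and 27.5 CPM at CT12. Its groups did not overlap. The log2 change was 0.75 ± 0.13 (SE), with an adjusted p of 0.0255 by edgeR. It was the only one of 7 tested NF-kB targets that was called by edgeR. The other 6, among them Nfkb1 and Relb, had changes between -0.11 and 0.18.

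The number of called genes fell whichever library was left out. It was 3 without library S38, 1 without S39, 3 without S401, 1 without S47, 0 without S48 and 3 without S404. It was 0 without both S401 and S47, the pair set apart by striatal and choroid plexus markers, an alternative chosen after seeing the data. All 5 genes kept a positive change in each of 14 alternatives, and were called in 9 (Slc2a1), 6 (Ahnak), 7 (Per3), 6 (Galnt15) and 5 (Nfkbia) of them.

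**Figure D2:**
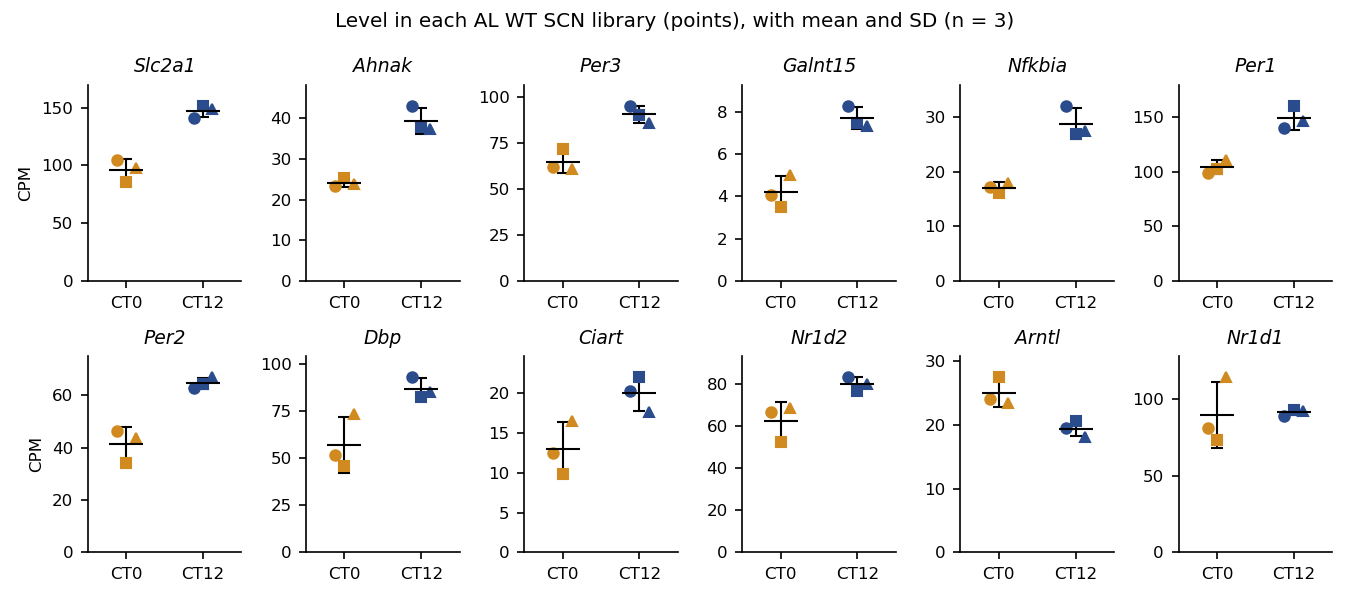
Levels in CPM of the 5 called genes and of 7 further clock genes in the 6 libraries, 1 point per library, with the mean and SD of each time (n = 3). For the 5 called genes the 3 CT12 points all lie above the 3 CT0 points.

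**Figure D3:**
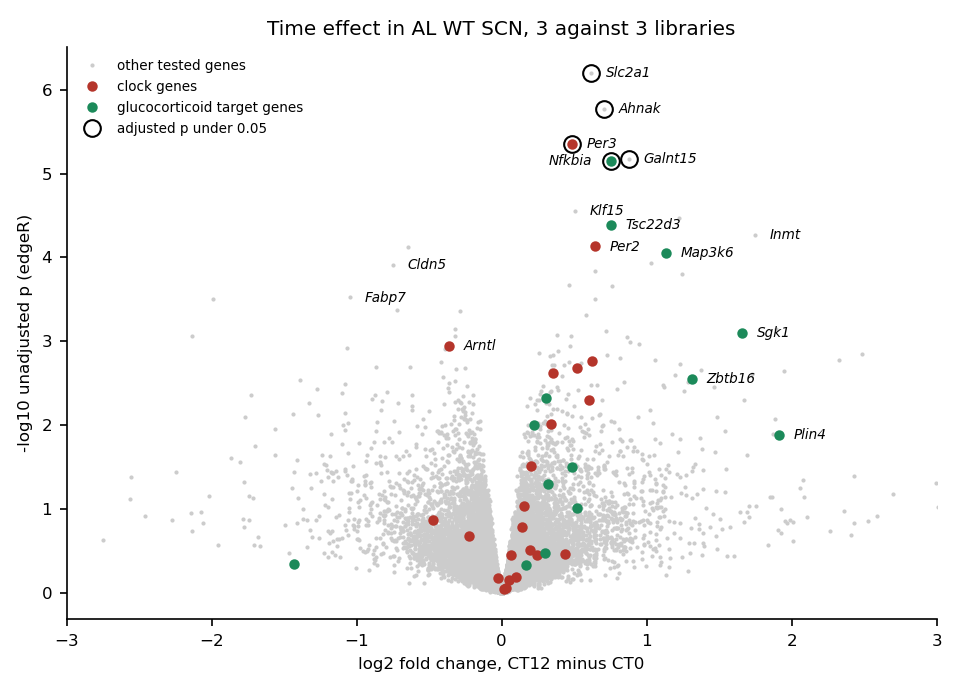
Unadjusted p of each tested gene, as -log10 on the vertical axis, against its fitted log2 change from CT0 to CT12, with clock genes and glucocorticoid targets coloured and called genes ringed. The 5 called genes all have positive changes, and 9 genes lie outside the log2 range of 3 on either side.

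Promoter windows of 5 genes are shown, chosen because they hold a motif of the clock, glucocorticoid or NF-kB pathways. Each window holds 250 bases before and 50 bases after a RefSeq start (GRCm38.p6), read on the gene's strand, and capitals mark a motif found on either strand. The windows are Per3 at chr4:151044616-151044915 (minus strand, D-boxes), Nfkbia at chr12:55492598-55492897 (minus strand, a kappa B motif), Arntl at chr7:113207261-113207560 (plus strand, 1 of 2 windows, a RORE), Map3k6 at chr4:133240568-133240867 (plus strand, a glucocorticoid response element) and Sgk1 at chr10:21993640-21993939 (plus strand, 1 of 6 windows of this gene, an E-box and a glucocorticoid response element).
Per3: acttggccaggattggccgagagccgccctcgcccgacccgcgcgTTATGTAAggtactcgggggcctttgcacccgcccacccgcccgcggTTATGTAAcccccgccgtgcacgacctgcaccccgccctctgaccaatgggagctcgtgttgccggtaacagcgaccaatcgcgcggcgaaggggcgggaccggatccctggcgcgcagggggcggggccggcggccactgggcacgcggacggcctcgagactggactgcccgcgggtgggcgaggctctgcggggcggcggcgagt
Nfkbia: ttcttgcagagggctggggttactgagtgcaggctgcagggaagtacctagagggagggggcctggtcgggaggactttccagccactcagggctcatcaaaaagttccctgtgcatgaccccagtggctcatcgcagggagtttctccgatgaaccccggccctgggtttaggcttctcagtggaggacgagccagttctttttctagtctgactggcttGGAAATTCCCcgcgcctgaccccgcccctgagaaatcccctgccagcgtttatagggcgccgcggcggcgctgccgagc
Arntl: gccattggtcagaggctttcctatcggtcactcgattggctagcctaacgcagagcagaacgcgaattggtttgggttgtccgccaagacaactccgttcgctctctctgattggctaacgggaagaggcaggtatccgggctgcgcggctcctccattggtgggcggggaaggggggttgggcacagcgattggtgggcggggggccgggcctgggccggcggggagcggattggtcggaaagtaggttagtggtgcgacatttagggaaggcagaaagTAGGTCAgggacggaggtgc
Map3k6: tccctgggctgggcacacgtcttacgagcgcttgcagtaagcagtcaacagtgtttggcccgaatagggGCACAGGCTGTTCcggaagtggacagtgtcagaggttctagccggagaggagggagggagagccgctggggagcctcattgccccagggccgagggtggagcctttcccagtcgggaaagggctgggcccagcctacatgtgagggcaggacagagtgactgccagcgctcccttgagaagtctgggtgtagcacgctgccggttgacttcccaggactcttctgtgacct
Sgk1: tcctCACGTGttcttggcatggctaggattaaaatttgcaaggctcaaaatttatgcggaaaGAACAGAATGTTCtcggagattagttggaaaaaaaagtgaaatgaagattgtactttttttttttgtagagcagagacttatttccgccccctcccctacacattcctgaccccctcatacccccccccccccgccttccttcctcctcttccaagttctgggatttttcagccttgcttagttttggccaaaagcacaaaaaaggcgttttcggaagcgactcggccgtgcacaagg

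The motifs searched were the E-box CACGTG, the D-box TTATGTAA or TTACGTAA, the RORE TAGGTCA, the glucocorticoid response element (GNACA, any 3 bases, TGTNC) and the kappa B motif (GGG, any 2 bases, TTTCC). No bases were shared between matches of different motifs. Of 32851 windows of the same length, 7.15% held the E-box, 1.06% the D-box, 2.61% the RORE, 0.475% the glucocorticoid response element and 1.63% the kappa B motif. Per3 held 2 D-boxes. Of the 5 called genes, all of which had a window, 1 held a D-box and 1 a kappa B motif. Of 14 glucocorticoid targets with a window, 3 held the glucocorticoid response element in at least 1 window. Some of these genes have several windows (Sgk1 has 6), so this count by gene is not comparable with the share by window above. A match is a description of the letters only.

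Among clock genes, the 5 period and cryptochrome genes all had positive changes, with a median log2 change of 0.48. By edgeR 1 of them, Per3, was called, and by DESeq2 Per2 as well. Of the 5, 4 had CT12 libraries all above the CT0 libraries, against 5.79% of all genes tested. Per2 was at 46.3, 34.1 and 43.8 CPM at CT0 and at 62.8, 64.3 and 67.0 CPM at CT12, a log2 difference of 0.64 ± 0.13 (SE) with an adjusted p of 0.122 by edgeR. Per1, the period gene that also answers light and glucocorticoids, was at 98.9, 102 and 111 CPM at CT0 and at 140, 160 and 146 CPM at CT12. Neither gene overlapped between the times, and Per1 had a log2 difference of 0.52 ± 0.15 (SE). Cry1 had a difference of 0.34 and Cry2 of 0.07, and the Cry2 libraries overlapped.

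The activators did not share 1 direction. Arntl was at 24.0, 27.5 and 23.4 CPM at CT0 and at 19.5, 20.6 and 18.2 CPM at CT12. All CT12 libraries were below all CT0 libraries, with a log2 difference of -0.36 ± 0.10 (SE) and an adjusted p of 0.562 by edgeR. Npas2, a relative of CLOCK, had a difference of -0.47 and did not overlap either, but its highest value was in library S401. Clock had a difference of 0.05 and Arntl2 of 0.02, and both overlapped.

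Of the receptors that act on Arntl, Nr1d2 (REV-ERB beta) was at 66.7, 52.2 and 68.5 CPM at CT0 and at 83.3, 76.8 and 79.9 CPM at CT12. Nr1d1 (REV-ERB alpha) was at 81.3, 73.4 and 114 CPM at CT0 and at 89.0, 93.0 and 92.4 CPM at CT12. Nr1d2 did not overlap and had a log2 difference of 0.36, whereas Nr1d1 overlapped, with a difference of 0.03. Dbp, the leading PAR-bZIP factor, was at 51.7, 45.6 and 73.6 CPM at CT0 and at 93.0, 82.3 and 84.8 CPM at CT12, a difference of 0.61 ± 0.19 (SE). Ciart, a repressor of BMAL1 and CLOCK, had a difference of 0.62 ± 0.17 (SE). Neither Dbp nor Ciart overlapped, and neither was called by edgeR or in any of the 14 alternatives, with adjusted p values of 0.805 and 0.622 by edgeR with all libraries.

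Of 15 listed genes that respond to glucocorticoids, 14 were tested, 13 had positive changes, and 9 had CT12 libraries all above CT0, against 5.79% of all genes. By edgeR 1 of them, Nfkbia, was called, against 2 without a filter on low counts and 4 with DESeq2. None was called with only the 2 groups, without the libraries with 3-digit title numbers, or without S401 and S47. None was called when any 1 of the 6 libraries was left out. The median log2 change was 0.50, against -0.00 over all genes. Without libraries S401 and S47 the median was 0.65. With 1 library left out it ran from 0.45 (without S47) to 0.61 (without S401). The list was chosen with earlier results of these data known.

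Sgk1, a kinase that controls ion transport, was at 35.1, 27.9 and 38.8 CPM at CT0 and at 125, 114 and 83.8 CPM at CT12, a log2 difference of 1.66 ± 0.41 (SE) with an adjusted p of 0.488 by edgeR. Tsc22d3, which encodes the anti-inflammatory protein GILZ, was at 81.3, 62.9 and 61.1 CPM at CT0 and at 114, 118 and 113 CPM at CT12. Its difference was 0.75 ± 0.14 (SE), with an adjusted p of 0.0936. Both genes were apart between the times in all 6 libraries. Neither was called by edgeR with all libraries, and each was called in 1 of the 14 alternatives, DESeq2.

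Plin4, a lipid droplet coat protein, was at 25.7, 7.30 and 9.06 CPM at CT0 and at 43.3, 68.7 and 46.4 CPM at CT12. Zbtb16, a zinc finger factor, was at 15.6, 9.56 and 13.3 CPM at CT0 and at 21.7, 40.0 and 34.1 CPM at CT12. Map3k6, a stress kinase, was at 4.81, 3.48 and 3.46 CPM at CT0 and at 8.23, 9.03 and 8.61 CPM at CT12. Each was separated, with log2 differences of 1.91 ± 0.69, 1.31 ± 0.38 and 1.14 ± 0.24 (SE). Their adjusted p values by edgeR were 0.957, 0.733 and 0.132 in that order. Fkbp5, the co-chaperone of the glucocorticoid receptor, had a difference of 0.49. Lcn2 was the 1 member with a negative difference and was at or near 0 CPM in all 6 libraries.

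**Figure D4:**
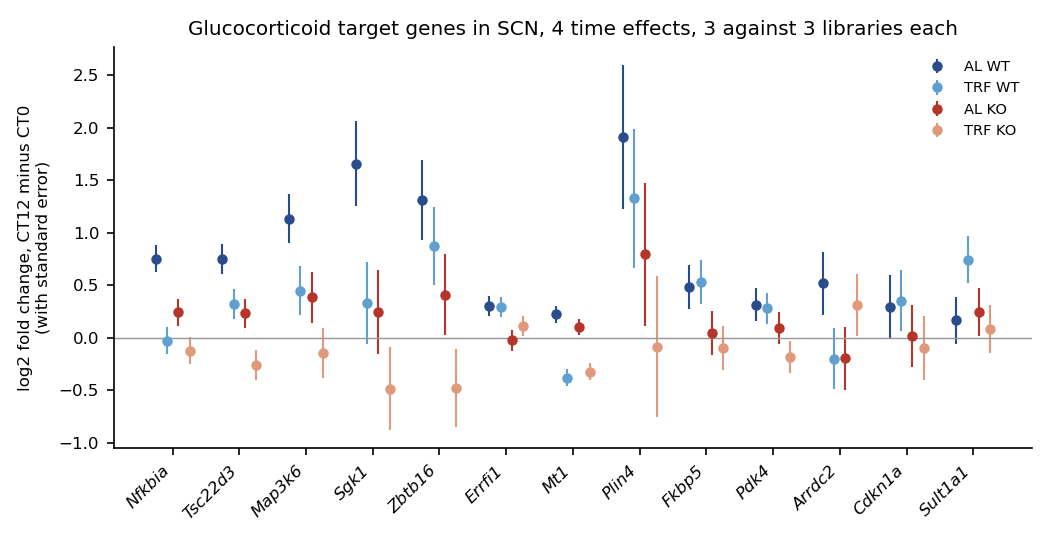
Log2 change from CT0 to CT12 of the tested glucocorticoid targets other than Lcn2 in the 4 SCN conditions of feeding and genotype, with error bars of 1 SE. Over all 14 tested members the AL WT median is 0.50, and in the other 3 conditions it is 0.34 (TRF WT), 0.17 (AL KO) and -0.11 (TRF KO).

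Klf15, a clock-driven and glucocorticoid-responsive factor, was next in order of p after the called genes. It was at 43.7, 32.2 and 36.4 CPM at CT0 and at 49.9, 57.4 and 52.1 CPM at CT12, with an adjusted p of 0.0850 by edgeR, and was called in 4 of the 14 alternatives. Among 10 clock output genes, 9 had positive changes. Of the 10, 4 were separated upward, against 5.79% of all genes, and 1 downward, against 4.85%. None was called by edgeR with all libraries, and 1 was called by DESeq2.

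Apart from glucocorticoid targets, the largest separated differences upward were those of Hif3a, Xdh, Plekhf1, Dcn, Trpv4, Mgp, Sfrp5 and Angptl2. None of them was called by edgeR with all libraries, and of the 14 alternatives 2 called Plekhf1 and 3 called Sfrp5. Plekhf1 was at 6.62, 3.65 and 4.33 CPM at CT0 and at 12.0, 13.1 and 8.95 CPM at CT12. Sfrp5, a secreted Wnt inhibitor, was at 28.2, 28.0 and 23.5 CPM at CT0 and at 51.7, 61.2 and 50.1 CPM at CT12. Trpv4, an ion channel of the choroid plexus and other cells, was at 14.3 CPM in library S47, the one with high Ttr, and between 2.83 and 4.17 CPM in the other 5. Dcn and Mgp belong to the meningeal fibroblast markers, which summed to between 42.7 and 55.6 CPM at CT0 and to between 53.3 and 85.4 CPM at CT12, with no member at 0. Both genes contribute to this sum. Dcn had means of 5.31 CPM at CT0 and 11.7 CPM at CT12, and Mgp of 5.66 and 12.2 CPM. The sum had means of 50.9 and 73.6 CPM. The part of meningeal fibroblast content in the differences of Dcn and Mgp was not tested.

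The largest separated differences downward were those of Ehd1, Fabp7, Cacng8, Mmp14, Cldn5, Tiam2, Insc, Nrxn2, Kcng4, Tmem44, Kcnip2 and Mettl23. None was called by edgeR with all libraries, and Fabp7 and Cldn5 were each called in 1 of the 14 alternatives, DESeq2. Cacng8, Tiam2, Nrxn2, Kcng4, Tmem44, Kcnip2 and Mettl23 were highest in library S401, the one with high striatal markers. Ehd1, Fabp7, Mmp14, Cldn5 and Insc were highest in S38 or S39. Cacng8 was at 15.2, 13.5 and 27.2 CPM at CT0 and at 12.5, 7.97 and 10.6 CPM at CT12. The part of striatal content in these differences was not tested. Fabp7, a fatty acid binding protein of astrocytes and glial precursors, was at 25.3, 35.9 and 30.2 CPM at CT0 and at 16.8, 12.2 and 15.3 CPM at CT12. Cldn5, a tight junction protein of brain endothelium, was at 59.2, 71.3 and 50.9 CPM at CT0 and at 35.2, 38.3 and 34.4 CPM at CT12. Both were apart between the times, with log2 differences of -1.04 and -0.75 and adjusted p values of 0.268 and 0.160 by edgeR.

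Slc2a1 and Cldn5 are both endothelial markers, with differences of opposite sign. Of 11 endothelial markers, 7 had positive and 4 negative changes, with 4 separated upward, against 5.79% of all genes, and 1 downward, against 4.85%. Their sum, to which Slc2a1 itself contributes, was between 380 and 393 CPM at CT0 and between 424 and 465 CPM at CT12. The mean of the sum was 388 CPM at CT0 and 440 CPM at CT12, and the mean of Slc2a1 alone was 96.1 and 147 CPM. The sum is therefore not a measure of endothelial content separate from Slc2a1. Apart from Slc2a1 and Cldn5 the log2 changes ran from -0.25 (Kdr) to 0.47 (Ly6c1). Ly6c1, Abcb1a (0.34) and Slco1a4 (0.31) were separated upward, and Flt1 (-0.05), Pecam1 (-0.01) and Tek (0.04) overlapped. The part of endothelial content in the rise of Slc2a1 was not tested.

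Of 17 tested heat shock chaperones, which peak with body temperature in many tissues, 16 had negative changes with a median of -0.17. Of the 17, 2 were separated downward, against 4.85% of all genes, and none was called by edgeR or by DESeq2. Stip1, a co-chaperone that links HSP70 and HSP90, was at 258, 274 and 209 CPM at CT0 and at 194, 204 and 198 CPM at CT12, a log2 difference of -0.31 ± 0.09 (SE). Of the 14 SCN neuropeptide genes none was separated or called by edgeR, and 9 had negative changes.

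Targets of ATF4, the factor of the amino acid and stress response, included 4 of 15 separated upward, against 5.79% of all genes, and none was called by edgeR or by DESeq2. Ddit4, an inhibitor of mTORC1, was at 57.1, 50.3 and 49.1 CPM at CT0 and at 75.2, 72.7 and 67.6 CPM at CT12. Slc38a2, an amino acid transporter, was at 121, 103 and 86.5 CPM at CT0 and at 127, 132 and 128 CPM at CT12. Both were apart between the times, with log2 differences of 0.46 and 0.31. The median of the list was 0.09.

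Of the light and cAMP response genes, Rasd1, a small GTPase first described as dexamethasone-induced, was at 16.7, 17.7 and 8.72 CPM at CT0 and at 22.7, 24.2 and 21.9 CPM at CT12. Its groups were apart, with a log2 difference of 0.67 ± 0.43 (SE). The 20 immediate early genes overlapped between the times with the exception of Ier5, which was lower, and Egr1, a factor induced by neuronal activity, had a difference of 0.23 ± 0.26 (SE). The cold-inducible gene Rbm3 was at 54.7, 61.7 and 60.4 CPM at CT0 and at 73.9, 69.6 and 68.4 CPM at CT12. It did not overlap and had a difference of 0.26, with an adjusted p of 0.950 by edgeR. Cirbp, the other gene of this list, overlapped and had a difference of 0.17.

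Microglial markers had negative changes in 15 of 18 genes, 2 of them separated downward, against 4.85% of all genes, and none called by edgeR. Cx3cr1, the fractalkine receptor, was at 34.6, 37.5 and 49.3 CPM at CT0 and at 31.2, 31.3 and 33.9 CPM at CT12. Its highest value was in library S401, as was the sum of the list, at 598 CPM against 452 to 487 CPM in the other 5. Sox10, a factor of the oligodendrocyte lineage, was at 106, 93.7 and 79.2 CPM at CT0 and at 69.8, 75.5 and 72.2 CPM at CT12, a log2 difference of -0.36 ± 0.11 (SE). Sox10 was separated and was not called by edgeR or in any of the 14 alternatives.

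The same contrast in the other SCN conditions, none of which shares a library with AL WT, gave these values for the called genes. Slc2a1 had a log2 change of 0.30 in TRF WT, -0.00 in AL KO and -0.02 in TRF KO. Ahnak had 0.80, 0.06 and -0.10 in that order, and Per3 had 0.07, 0.11 and -0.20. Galnt15 had 0.16, -0.08 and -0.31, and Nfkbia had -0.03, 0.24 and -0.12. In the same order, the meningeal fibroblast markers had medians of 1.61, -0.23 and 0.28, and the choroid plexus markers of 3.02, -0.43 and -2.77. The part of such marker differences in the values of the called genes was not tested. Under edgeR no gene was called for a difference in the time effect between feeding regimens, with 1220 genes (6.73%) at an unadjusted p under 0.05 and 16 called by DESeq2. None was called between genotypes under AL, with 456 (2.51%) at an unadjusted p under 0.05 and 2 called by DESeq2.

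In liver libraries with the same title numbers, several clock genes had larger changes between the times. Dbp was between 0.34 and 0.94 CPM in liver at CT0 and between 42.1 and 53.2 CPM at CT12. Arntl was between 27.7 and 31.5 CPM in liver at CT0 and between 3.34 and 3.46 CPM at CT12. The difference in log2 time effect, SCN minus liver, was -5.78 for Dbp and 2.72 for Arntl. In the joint edgeR fit, 542 of 19366 genes (2.8%) were called for such a difference, 250 (1.29%) with a higher and 292 (1.51%) with a lower change in SCN. Of 20 cholesterol synthesis genes, 17 had positive changes in SCN with a median of 0.11, whereas the median in liver was -0.81 and 9 were called for the difference. Per2 was not called, with a difference of -1.21 and an adjusted p of 0.238.

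**Figure D5:**
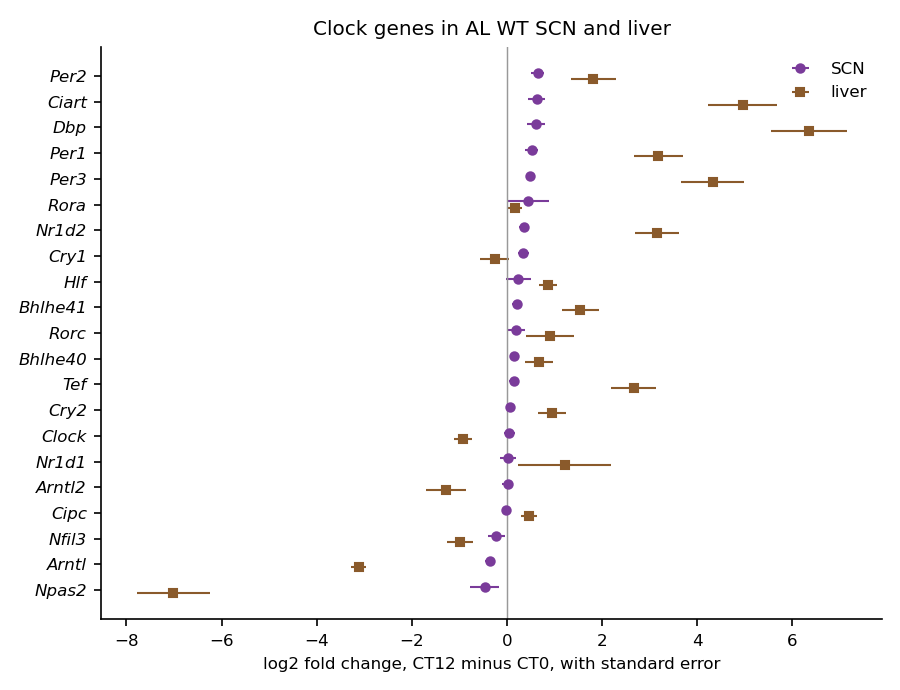
Log2 change from CT0 to CT12 in SCN and in liver of the clock genes tested in both, in AL WT mice, with error bars of 1 SE. Dbp and Npas2 have the largest changes in liver, and the SCN values lie between -0.47 and 0.64.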

How the data were processed

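Per the labels' protocols, SCN RNA was extracted with TRIzol and made into libraries with a NEBNext kit. The submitters' processing notes name FastQC 0.11.8, STAR and the build GRCm38 (mm10). The counting program and its strand setting were not given in the sources used here, so a gene and an antisense neighbour cannot be told apart. The values are raw read counts per gene, deposited by the authors in 1 table. Columns were assigned to libraries through title number and tissue suffix, and 0 columns had no sample.

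Counts of the 24 SCN libraries (8 groups, 3 each) were filtered with filterByExpr, scaled by TMM and fitted with edgeR 4.0.16 (R 4.3.3, robust quasi-likelihood). The comparison with liver used 24 SCN and 26 liver libraries. A gene was called at a Benjamini-Hochberg adjusted p below 0.05. The SE is the log2 change divided by the root of the F statistic. DESeq2 1.42.0 was an alternative, and the steps were tested on simulated data. Of 38129 entries, 38038 matched GENCODE vM21, the source of coordinates.

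Named genes were all clock list members, called genes, the 12 largest separated rises and falls with a mean of at least 5 CPM, the defining markers, and up to 4 members of each other list by p. Vip, and other list members given with values, were added after their values were seen. The members and lists were chosen with earlier results of these data known. Same-numbered SCN and liver libraries were not paired in the main fit, and the title number as a replicate block was an alternative. Correlations of their deviations were between -0.07 and 0.07. These cannot show whether the libraries came from the same animals.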

Additional observations from a re-analysis of the deposited data

Results flagged for a closer look

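In the joint edgeR fit of SCN and liver, the change from CT0 to CT12 in AL WT mice differed between the tissues for 542 of 19366 genes (2.8%), and 10 of the 22 listed clock genes were among them. The differences below are log2 changes in SCN minus those in liver, each below an adjusted p of 0.05. The activators were 2.72 for Arntl, 0.93 for Clock and 6.55 for Npas2, all with lower levels at CT12 in liver. Npas2 was at 0.058, 0.056 and 0.19 CPM in liver libraries S47, S48 and S404, so few reads set the size of its difference. The negative differences were -5.78 for Dbp, -4.37 for Ciart, -3.88 for Per3, -2.83 for Nr1d2, -2.70 for Per1, -2.57 for Tef and -1.37 for Bhlhe41. In liver at CT0, Dbp was between 0.34 and 0.94 CPM and Ciart between 0.51 and 0.85 CPM. Few reads thus set the size of the Dbp and Ciart differences as well. The SCN libraries differed among themselves in region markers, and the part of this in the differences was not tested.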

How the results depend on the processing

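For the time effect, 5 genes were called with RLE factors or a term for the libraries with 3-digit title numbers and 7 with the leading axis of deviations as a covariate. The count was 8 without a filter, 19 with DESeq2, 1 with only the 2 groups, 0 without the 3-digit libraries and 0 without libraries S401 and S47. Leaving out each library gave 0 to 3. The gene called with only the 2 groups, Sfrp5, is none of the 5, and of the 3 called without S38, 1 is. For the feeding by time difference the count was 2 without a filter, 16 with DESeq2, 2 with the groups compared alone, 6 without the 3-digit libraries, 5 with a term for them and 2 with the covariate, and leaving out each library gave 0 to 0. The genotype by time difference gave 1 without a filter, 2 with DESeq2 and 0 to 0 when each library was left out. For SCN against liver the count was 150 without the 3-digit libraries and 297 without SCN libraries S401 and S47, and leaving out each library gave 387 to 594. The title number as a replicate block gave 512. Correlations of the deviations of same-numbered SCN and liver libraries were between -0.07 and 0.07. No paired analysis was possible for the SCN comparisons because CT0 and CT12 libraries share no title numbers. Settings with fewer samples have less power by construction. The part of this in their counts was not tested, nor was the cause of the differences under the other settings. No named gene changed sign where it was called.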
